A study of Mus musculus with 12 samples.

Results

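Regulatory T cells that had formed in mice from transferred T cells (donor Treg, 2 libraries) were compared with regulatory T cells induced in culture (iTreg, 2 libraries). These are 4 of the 12 ATAC-seq libraries of the series, taken by their labels. Peaks of the 4 lists that shared 1 bp or more were merged into regions. A region was called differing when both libraries of one group had a peak there and neither library of the other did.

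The study followed CD4 T cells of Balb/c mice that carry the 6.5TCR, a transgenic receptor for the influenza hemagglutinin (HA). They were transferred into Aire-HA hosts, and bone marrow cells were sorted 14 days later. Donor Treg were sorted as CD3+CD4+ cells that were CD45.1- and CD45.2+, CD25+ and LAP+. LAP is the latency peptide that stays bound to TGF-beta, and CD25 is the IL-2 receptor alpha chain. The iTreg came, by their library names, from wild-type Balb/c cells that were CD45-2Pos, and were sorted as CD3+CD4+CD25+LAP+ cells. The culture agents, its length and the ages of the mice were not given by the labels. The groups therefore differ together in antigen receptor, history, surroundings and library run, and these cannot be told apart. The 8 other libraries serve here only to follow the differing regions: host pTreg (CD25+CTLA4+Nrp1-) and host tTreg (CD25+CTLA4+Nrp1+), both CD45.1+CD45.2+ by their labels, and the CD25- conventional cells donor Tconv (CD45.1-CD45.2+) and host Tconv (CD45.1+CD45.2-), with 2 libraries each.

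Regulatory T cells restrain other immune cells, and the transcription factor Foxp3 holds their identity. They form in the thymus or, from conventional CD4 T cells, in the periphery; culture with TGF-beta and IL-2 also induces Foxp3, but Foxp3 is often less stable there and part of the programme of cells formed in the body can be missing. ATAC-seq marks open chromatin by inserting sequencing adapters with the Tn5 transposase, so a peak near a gene marks a promoter or a possible enhancer and says nothing by itself of the gene's RNA.

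The donor Treg lists held 32234 and 34467 peaks and the iTreg lists 58357 and 63207, against a range of 28394 to 63207 over all 12 libraries. They covered 21.7 and 23.2 Mb of the genome in donor Treg and 38.0 and 42.6 Mb in iTreg. No read numbers come with the lists, and where a peak is missing the chromatin need not be closed. In sorted populations a peak carried by fewer cells and a weaker peak in every cell cannot be told apart. Library names carry the run code BW13 in donor Treg and none in iTreg, and a number that is lower in both donor Treg libraries (17000 at most) than in the iTreg libraries (50000 in both). The labels do not say whether the 2 libraries of a group came from separate animals or cultures, so the spread between them may be technical. In all 4 libraries 8 of the 9 CD4 T cell markers with a promoter sequence had a peak there, and none of the B cell, NK cell, CD8 T cell or erythroid markers did. Il2ra and Ctla4 had promoter peaks in all 4 libraries, while the promoter windows of Foxp3 and Tnfrsf18 had none in any of them. Among the other markers, Cebpa and Meis1 had a promoter peak in all 4 libraries, and the windows of Sdc1, Lyz2 and Kit had one in both iTreg libraries and in neither donor Treg library.

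Of 69423 merged regions, 2085 (3.00%) had a peak only in donor Treg, 24002 (34.6%) only in iTreg, 26959 (38.8%) in all 4 libraries, and 16377 (23.6%) followed another pattern. Seen from each group, 7.02% of the 29689 regions found in both donor Treg libraries had no peak in iTreg, and 43.8% of the 54829 regions found in both iTreg libraries had none in donor Treg. Of the regions found in any library of the group, 83.8% were found in both donor Treg libraries and 83.2% in both iTreg libraries. Since the iTreg lists are longer, the comparison was repeated with the 28394 widest peaks of each list, the length of the shortest list in the series. Then 4882 regions (12.8%) were donor-Treg-only and 5314 (13.9%) iTreg-only, so the donor Treg share of the differing regions was 7.99% with all peaks and 47.9% with equal lists. The surplus of iTreg-only regions thus depends on list length. The equal lists reached down to peaks of 212 and 240 bp in donor Treg but stopped at 447 and 498 bp in iTreg. A region called donor-Treg-only with equal lists can therefore have an iTreg peak that was cut for its width. The promoter windows of Tigit and Fgl2, for example, had a peak in all 4 libraries with all peaks and were donor-Treg-only with equal lists. With 2 libraries against 2 a two-sided exact permutation test cannot give a p under 0.333, so no p is given for these counts or for any gene.

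**Figure D1:**
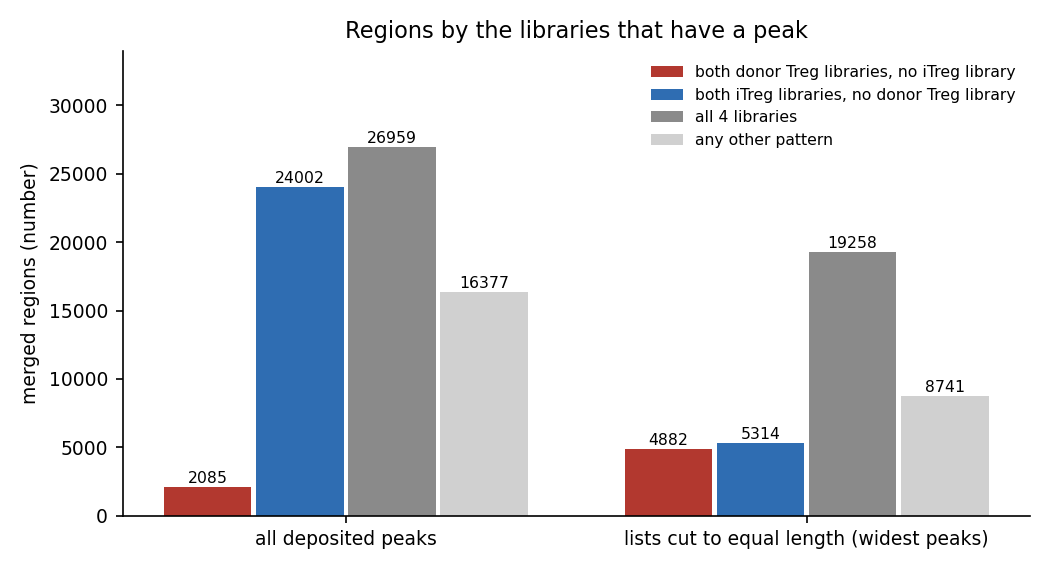
Number of merged regions (y axis) by the libraries that have a peak, with all deposited peaks and with lists of equal length. The iTreg-only bar is far above the donor-Treg-only bar with all peaks (2085 donor-Treg-only, 24002 iTreg-only) and close to it with equal lists (4882 and 5314).

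Differing regions were mostly narrow and away from gene starts. The median width was 375 bp in donor-Treg-only, 367 bp in iTreg-only and 961 bp in shared regions. The median distance to a gene start was 23.4 kb for donor-Treg-only, 20.0 kb for iTreg-only and 9.35 kb for shared regions. Gene bodies held 58.5% of donor-Treg-only, 55.4% of iTreg-only and 65.4% of shared regions. With all peaks 5.995% of donor-Treg-only and 6.61% of iTreg-only regions lay within 1 kb of a start. With equal lists these shares were 5.16% and 13.1%. The median width was then 391 bp in donor-Treg-only and 744 bp in iTreg-only regions, since narrower iTreg peaks had been cut. The part of this cut in the difference between the shares was not tested. Shared regions also differed in width: covered width had a median of 608 and 637 bp in the donor Treg libraries and of 835 and 905 bp in the iTreg libraries. Of the 26959 shared regions, 1794 (6.65%) were wider in both donor Treg libraries than in both iTreg libraries, and 20545 (76.2%) the other way round. Without donor Treg replicate 1 the number wider in donor Treg was 2882, and without iTreg replicate 2 it was 3346. With equal lists 740 of the shared regions (3.84%) were wider in donor Treg and 81.6% in iTreg. Since the equal lists kept only wider peaks in iTreg than in donor Treg, this repeat leans to iTreg and is no check of the width result.

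Foxp3 had a peak inside the gene in both kinds of cell, and one at its 3′ end in donor Treg only. In mm10, chrX:7582796-7585032, from 3.12 to 5.36 kb after the Foxp3 start, had a peak in every one of the 4 libraries. The peaks there covered 1422 and 2175 bp in donor Treg and 921 and 832 bp in iTreg, so both donor Treg values lie above both iTreg values. At chrX:7592924-7596817, which spans the ends of Foxp3 and of the neighbouring gene Ccdc22, peaks covered 2698 and 3894 bp in donor Treg and neither iTreg library had a peak. All 4 host Treg libraries had a peak in that region, of 1326, 1020, 714 and 1679 bp, as had both donor Tconv libraries with 248 and 209 bp, and neither host Tconv library had one. Its midpoint lies inside both genes, which overlap there, and the gene counts give it to Ccdc22 only because that gene is the shorter, so the count of 0 differing regions for Foxp3 follows from that rule.

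Ctla4, which encodes a checkpoint receptor that strips costimulatory ligands from antigen-presenting cells, differed both in the width of its peaks and in which regions had one. One region over the gene, chr1:60908531-60914231, was covered for 5341 and 5701 bp in donor Treg and for 1422 and 2156 bp in iTreg. Each donor Treg library had a single peak over most of the gene, where each iTreg library had 1 peak at the start and a separate one inside the gene. Of the 5 shared regions of Ctla4, 3 were wider in both donor Treg libraries and none in both iTreg libraries. In the host Treg libraries the block covered 5275, 1580, 3875 and 5351 bp, and in the Tconv libraries 1317, 823, 647 and 880 bp. Ctla4 had 4 donor-Treg-only and 5 iTreg-only regions with all peaks, and 4 and 1 with equal lists. At chr1:60936905-60937545, 28.2 kb past the Ctla4 start, peaks of 578 and 483 bp in donor Treg had no counterpart in iTreg or Tconv and one in all 4 host Treg libraries. At chr1:60879910-60880784, at -28.7 kb from the start, peaks of 848 and 875 bp in iTreg had none in any of the other 10 libraries.

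**Figure D2:**
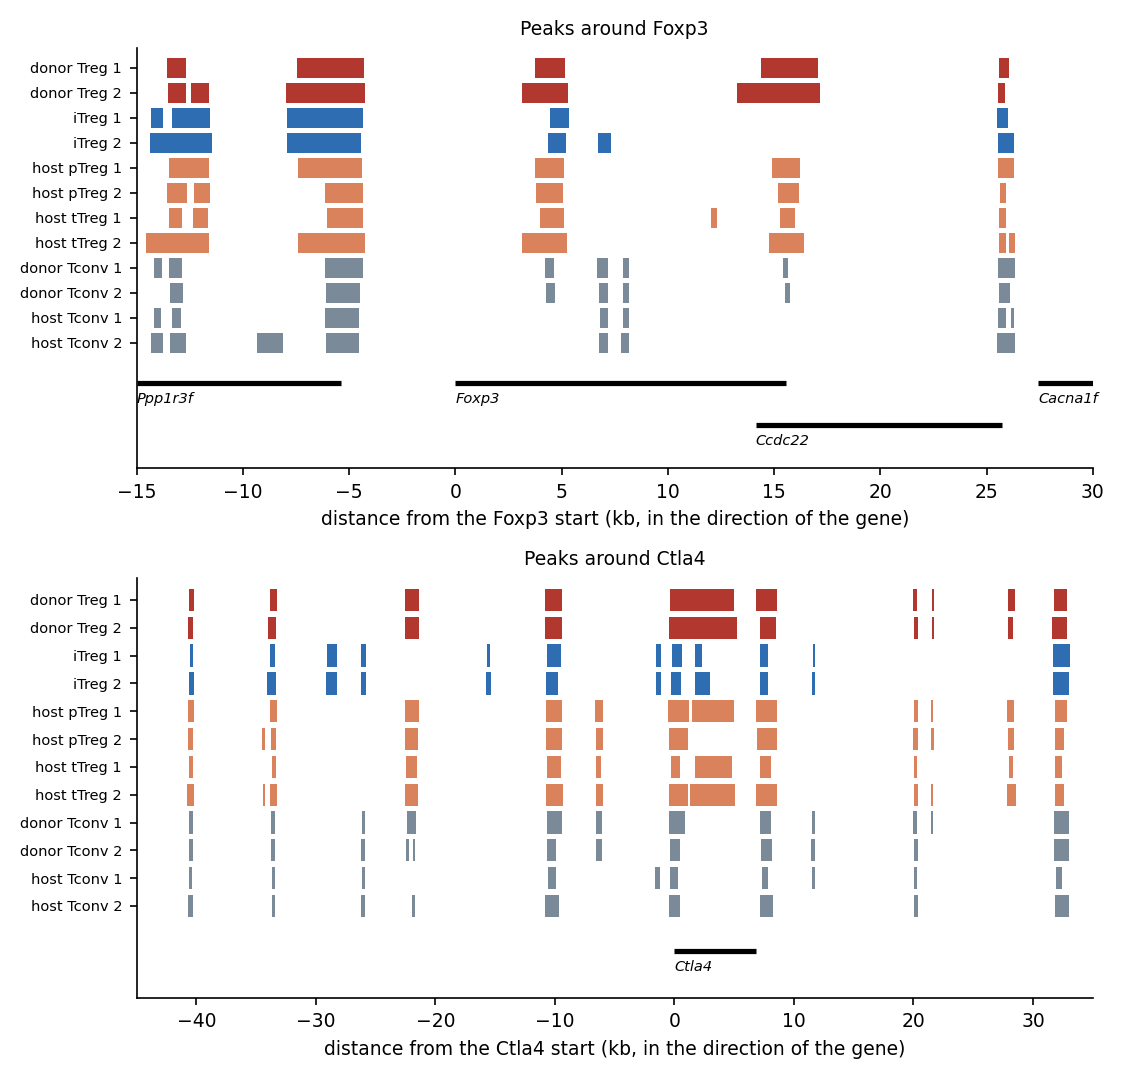
Peaks of the 12 libraries (bars, 1 row per library) by distance in kb from the start of Foxp3 (top) and Ctla4 (bottom), with genes below. Near 15 kb the donor Treg rows have a wide peak at the Foxp3 3′ end that the iTreg rows lack, and over Ctla4 the donor Treg peaks of 5341 and 5701 bp stand above separate, shorter iTreg peaks.

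Ikzf2, which encodes Helios, a factor of the Ikaros family found in most thymic regulatory T cells, had 12 donor-Treg-only and 2 iTreg-only regions both with all peaks and with equal lists. This net was the largest towards donor Treg with all peaks and the 6th with equal lists. Among all 15729 genes with a region, 29 (0.184%) had a net of 3 or more regions towards donor Treg and 2524 (16.0%) towards iTreg. With equal lists these were 236 (1.74%) and 203 (1.50%) of 13541 genes. Of the 12 donor-Treg-only regions of Ikzf2, 9 had a peak in all 4 host Treg libraries, and 5 had none in any Tconv library. Each host Treg library held 68.3 to 85.8% of all donor-Treg-only regions, and 71.5% of them had a peak in at least 1 Tconv library. Inside the gene, chr1:69543999-69545872 was covered for 1739 and 1874 bp in donor Treg and for 438 and 497 bp in iTreg. The region chr1:69679538-69681453 behaved alike, with 1898 and 1902 bp in donor Treg and 385 and 400 bp in iTreg. The high-coordinate end of the gene differed little, with 1391 and 1650 bp in donor Treg and 1535 and 1560 bp in iTreg at chr1:69686737-69688441.

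Il2ra, the gene of CD25, by which both groups were sorted, was accessible in a different layout in each group. It had 3 donor-Treg-only and 4 iTreg-only regions, again with all peaks and with equal lists. None of the 4 iTreg-only regions had a peak in any of the 8 other libraries. Of all iTreg-only regions, 53.0% had none there. The widest of the 4 at Il2ra, chr2:11654520-11655850, lies 12.4 kb after the Il2ra start with peaks of 1281 and 1331 bp in iTreg. The next, chr2:11629544-11630784, lies at -12.6 kb from the start with 1197 and 1222 bp in iTreg. At the start itself, chr2:11640956-11643443, peaks covered 756 and 793 bp in donor Treg and 2335 and 2488 bp in iTreg, and all 4 shared regions of Il2ra were wider in iTreg. Among the donor-Treg-only regions, chr2:11625887-11626450 with 564 and 397 bp and chr2:11662719-11663210 with 439 and 473 bp had a peak in all 4 host Treg and in no Tconv library. The widest of the 3 went the other way. It was chr2:11657371-11658179, with 688 and 702 bp in donor Treg and a peak in 1 host Treg and all 4 Tconv libraries.

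**Figure D3:**
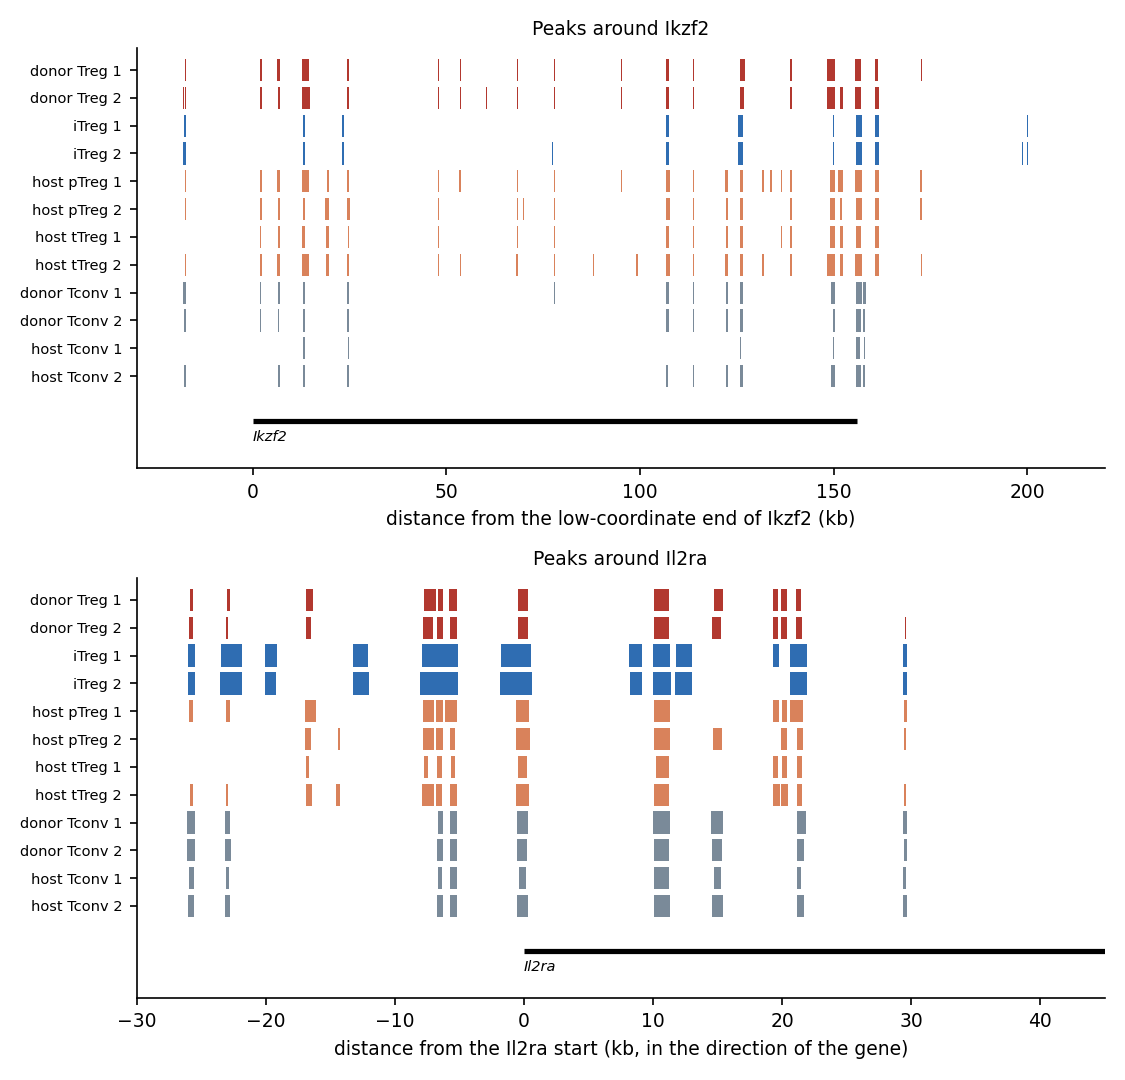
Peaks of the 12 libraries by distance in kb from the low-coordinate end of Ikzf2 (top) and from the Il2ra start (bottom), with genes below. Most of the 12 donor-Treg-only peaks of Ikzf2 recur in the host Treg rows, while the 4 iTreg-only peaks of Il2ra appear in the iTreg rows alone.

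Most of the effector and tissue regulatory T cell genes described here had more donor-Treg-only than iTreg-only regions. Over the whole list of 20 such genes this did not hold. With all peaks 7 had a net towards donor Treg and 9 towards iTreg, and with equal lists 11 and 4. Recurrence in host Treg is to be read against all donor-Treg-only regions. Of those, 94.1% had a peak in at least 1 host Treg library, and each host Treg library held 68.3 to 85.8%. All 8 other libraries shared 24.7%, and 14.3% were in all 4 host Treg and no Tconv library. The share in all 4 host Treg libraries whatever Tconv shows was not counted. Counts of that kind are therefore not to be read against the 14.3%. Itgb8, a subunit of the integrin that frees TGF-beta from its latent complex, had 3 donor-Treg-only and 0 iTreg-only regions. All 3 had a peak in all 4 host Treg and in no Tconv library, and the widest, chr12:119207025-119207607, had 401 and 583 bp in donor Treg. Klrg1, an inhibitory lectin receptor of terminally differentiated cells, had 5 and 1, and all 5 were found in all 4 host Treg libraries. Il1rl1, which encodes the IL-33 receptor ST2, had 4 donor-Treg-only and 2 iTreg-only regions, 2 of the 4 in all host Treg and no Tconv library. Maf, a factor that drives Il10, had 2 and 0, and Il10 itself 4 and 3. All 4 of the donor-Treg-only regions of Il10 were found in all 4 host Treg libraries, and 3 of them in all 4 Tconv libraries too. Itgae (CD103) had 4 and 1, and of its 4 only 1 was found in all 4 host Treg libraries and 1 in none of the 8 other libraries. Rora, a nuclear receptor of tissue regulatory and Th17 cells, went the other way with 4 donor-Treg-only and 21 iTreg-only regions, but with equal lists it had 6 and 4, so its direction depends on list length. Over the list of 20 genes of this programme, 35 regions were donor-Treg-only and 49 iTreg-only, a donor Treg share of 41.7% against 7.99% of all differing regions. With equal lists, which leave out narrower iTreg peaks, there were 40 and 14 (74.1%, against 47.9%), so the majority turned to donor Treg.

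Receptors that restrain T cells and the Tox factors had the highest donor Treg share among the lists with at least 10 differing regions. Their 12 genes had 18 donor-Treg-only and 18 iTreg-only regions (50.0%), and with equal lists 29 and 1 (96.7%, against 47.9% of all differing regions). Some of the 29 may have an iTreg peak that was too narrow for the equal list. Tox, a factor linked to sustained receptor signalling, accounted for 9 of the 18 donor-Treg-only and 5 of the 18 iTreg-only regions, and for 14 of the 29 with equal lists. Of the 16 shared Tox regions 9 were wider in donor Treg and 5 in iTreg. Tigit, an inhibitory receptor, had 1 donor-Treg-only region, chr16:43633808-43634438, with 631 and 534 bp in donor Treg, a peak in all 4 host Treg libraries and none in any Tconv library. At the Tigit start, chr16:43663818-43665246, peaks covered 1382 and 1429 bp in donor Treg and 354 and 681 bp in iTreg, while the Tconv libraries had 1411, 1379, 852 and 954 bp. Havcr2 (TIM-3), Lag3 and Cd160 had no differing region with all peaks.

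Genes that present, bind or relay TGF-beta were mixed. Tgfbr3, a co-receptor, had 0 donor-Treg-only and 16 iTreg-only regions, and 0 and 9 with equal lists. None of the 16 had a peak in any host Treg library, 9 had one in all 4 Tconv libraries and 4 had none in any of these 8. Of all iTreg-only regions, 16.3% had a peak in at least 1 host Treg library and 53.0% had none in the 8. In all 4 Tconv and no host Treg library were 10.3% of them. All 7 shared regions of Tgfbr3 were wider in iTreg, as were all 7 of Smad7, the inhibitor of the pathway. Tgfbr2, the receptor that binds the ligand, had 3 donor-Treg-only and 1 iTreg-only region. Of the 15 shared regions of Tgfbr2, however, 1 was wider in donor Treg and 13 in iTreg. Lrrc32 encodes GARP, which tethers latent TGF-beta to the cell surface. At chr7:98491592-98493601 inside Lrrc32, peaks of 1874 and 2010 bp in donor Treg met none in iTreg, and the region had a peak in all 4 host Treg and no Tconv library. The 5 shared regions of Lrrc32 were wider in iTreg. Tgfb1, which encodes the ligand and LAP, a sorting marker of both groups, had 1 iTreg-only region, chr7:25707453-25708609, with 1087 and 1157 bp in iTreg and a peak in all 4 host Treg and no Tconv library. Tnfrsf18 (GITR) had a region of the same kind, chr4:156030458-156031507, with 927 and 1000 bp in iTreg. Of the regulatory libraries, the donor Treg were the only ones without a peak in these 2 regions. The 14 receptor and Smad genes together had 6 donor-Treg-only and 46 iTreg-only regions (11.5%), and the 11 genes of latent TGF-beta presentation 4 and 20 (16.7%), against 7.99% of all differing regions. With equal lists they had 9 and 13 (40.9%) and 6 and 10 (37.5%), against 47.9%, so both lists lay above the overall share with all peaks and below it with equal lists.

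Among factors of naive and quiescent T cells, a promoter window of Tcf7 had a peak only in donor Treg. A window each of Lef1, Satb1 and Foxp1 had one only in iTreg. A promoter window here is the 300 bases from 250 before to 50 after a RefSeq start in GRCm38.p6, whose coordinates are those of mm10. A gene with several starts has several windows, so a differing window does not speak for all promoters of its gene. Of 16 naive and quiescence genes with a window, 13 had one with a peak in all 4 libraries. An iTreg-only window was found at 4 of the 16 and a donor-Treg-only window at 1, and a gene can count in more than 1 class. Of 32851 windows 126 (0.384%) had a peak only in donor Treg and 1411 (4.30%) only in iTreg, while 11396 (34.7%) had one in all 4 libraries. With equal lists 221 windows (0.673%) were donor-Treg-only and 875 (2.66%) iTreg-only. The windows below are the first 6 with such a difference in the order of a list of 71 chosen genes. They are printed 5′ to 3′ along the gene in lower case, to show which windows had a peak in one group only. Capitals mark matches, on either strand, to any of 18 short motifs. The Tcf7 window is chr11:52282965-52283264 on the minus strand and the Ifng window chr10:118440796-118441095 on the plus strand, both with a peak only in donor Treg.
Tcf7: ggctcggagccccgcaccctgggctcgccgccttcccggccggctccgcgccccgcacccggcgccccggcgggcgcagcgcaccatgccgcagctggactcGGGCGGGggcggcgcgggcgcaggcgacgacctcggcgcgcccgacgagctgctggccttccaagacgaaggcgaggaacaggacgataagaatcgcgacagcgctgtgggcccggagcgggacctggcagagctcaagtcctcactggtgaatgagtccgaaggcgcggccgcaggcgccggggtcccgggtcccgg
Ifng: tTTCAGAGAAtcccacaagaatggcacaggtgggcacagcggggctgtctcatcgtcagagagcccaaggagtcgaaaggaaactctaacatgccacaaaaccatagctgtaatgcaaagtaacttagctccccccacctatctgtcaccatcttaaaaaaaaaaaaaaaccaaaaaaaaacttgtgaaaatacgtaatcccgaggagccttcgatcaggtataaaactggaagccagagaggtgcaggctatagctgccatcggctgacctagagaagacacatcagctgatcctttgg
The following 4 had a peak only in iTreg: Lef1 at chr3:131110047-131110346 on the plus strand, Satb1 at chr17:51812135-51812434, Foxp1 at chr6:99520944-99521243 and Bcl6 at chr16:23981234-23981533, the last 3 on the minus strand.
Lef1: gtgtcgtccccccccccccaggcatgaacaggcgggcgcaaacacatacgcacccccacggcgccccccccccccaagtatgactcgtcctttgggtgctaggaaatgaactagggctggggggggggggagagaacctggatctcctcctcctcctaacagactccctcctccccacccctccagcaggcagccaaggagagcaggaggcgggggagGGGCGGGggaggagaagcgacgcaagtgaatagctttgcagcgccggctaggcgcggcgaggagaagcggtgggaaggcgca
Satb1: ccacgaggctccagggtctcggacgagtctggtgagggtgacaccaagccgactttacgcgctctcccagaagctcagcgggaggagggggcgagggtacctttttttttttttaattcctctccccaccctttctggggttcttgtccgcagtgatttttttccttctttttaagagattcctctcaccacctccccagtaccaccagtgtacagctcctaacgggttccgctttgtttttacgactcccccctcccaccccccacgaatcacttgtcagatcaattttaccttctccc
Foxp1: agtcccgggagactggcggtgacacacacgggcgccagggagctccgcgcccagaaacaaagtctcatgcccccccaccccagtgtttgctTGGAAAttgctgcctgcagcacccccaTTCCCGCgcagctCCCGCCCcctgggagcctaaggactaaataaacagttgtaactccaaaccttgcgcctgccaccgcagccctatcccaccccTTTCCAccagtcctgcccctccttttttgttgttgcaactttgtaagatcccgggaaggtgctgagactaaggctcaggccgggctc
Bcl6: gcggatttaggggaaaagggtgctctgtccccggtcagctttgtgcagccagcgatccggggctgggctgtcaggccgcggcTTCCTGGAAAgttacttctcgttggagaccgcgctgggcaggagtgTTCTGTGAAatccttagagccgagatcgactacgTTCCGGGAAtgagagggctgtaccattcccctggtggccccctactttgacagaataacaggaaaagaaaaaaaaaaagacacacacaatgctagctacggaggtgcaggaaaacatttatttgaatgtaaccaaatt
The capitals in Tcf7 and Lef1 are a KLF/SP motif (GGGCGGG), which 25.6% of all windows hold. In Foxp1 they are an E2F motif (TTCCCGC, 4.60% of all windows), a KLF/SP motif and 2 NFAT motifs (TGGAAA, 21.4%). Bcl6 holds 3 STAT motifs (TTCNNNGAA, 8.30%), the first of which overlaps an NFAT motif, and Ifng holds 1 STAT motif. The Satb1 window holds none of the 18. These are matches of letters and not sites shown to be bound.

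Tcf7 encodes TCF-1, a factor that maintains naive and memory T cells. The peaks over its printed window were 2568 and 2775 bp wide in donor Treg, and absent in both iTreg libraries. They were 1465, 331, 362 and 389 bp wide in the host Treg libraries and 12675, 12758, 12436 and 14390 bp wide in the 4 Tconv libraries, so donor Treg lay between host Treg and Tconv. Ifng, the main Th1 cytokine gene, had peaks of 238 and 335 bp in donor Treg, none in iTreg, and one in all 8 other libraries. Lef1 encodes a partner of TCF-1, and its window lay under peaks of 4318 and 4240 bp in iTreg, with none in donor Treg or in any host Treg library and one in 3 of the 4 Tconv libraries. Satb1, a chromatin organiser of T cells, had peaks of 2457 and 2994 bp in iTreg that covered 46 and 300 bp of its printed window. Each Tconv library had a peak over that window, and no donor Treg or host Treg library did. Foxp1, a quiescence factor, had the same pattern, with 2778 and 3210 bp in iTreg. Bcl6, the repressor that makes follicular helper cells, had peaks of 2788 and 3199 bp over its window in iTreg. No peak of the other 10 libraries reached that window. The printed windows of Satb1 and Bcl6 belong to starts inside the gene bodies, which reach to chr17:51833290 and chr16:23988866. The widest iTreg-only regions given to Lef1, Satb1, Foxp1 and Bcl6 were 1457, 812, 1662 and 968 bp, all narrower than these iTreg peaks. The merged regions that hold these peaks were thus not iTreg-only at these genes, and a donor Treg peak can lie elsewhere in them.

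Over whole genes these factors differed in their counts. Lef1 had 0 donor-Treg-only and 6 iTreg-only regions, Satb1 0 and 7, Bach2 2 and 16, and Foxp1 3 and 18, while Tcf7 had 3 and 2. With equal lists Lef1 had 1 and 4, Satb1 0 and 2, Bach2 2 and 7, Foxp1 4 and 5, and Tcf7 4 and 0. Of the 18 iTreg-only regions of Foxp1, 10 had a peak in all 4 Tconv libraries and 17 in no host Treg library. At Bach2, a repressor of effector genes, 7 of 16 had a peak in all 4 Tconv libraries and 15 in no host Treg library. Absence from host Treg was common, as only 16.3% of all iTreg-only regions had a peak in at least 1 host Treg library. In all 4 Tconv and no host Treg library were 10.3% of them. Il7r, the IL-7 receptor gene, had no differing region, and both of its shared regions were wider in donor Treg. The list of 20 naive and quiescence genes had 20 donor-Treg-only and 82 iTreg-only regions (19.6%), and 39 and 34 with equal lists (53.4%). Both shares lay above those of all differing regions, 7.99% and 47.9%.

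Cytokine, metabolic, AP-1 and cell cycle genes are to be read against a donor Treg share of 7.99% over all differing regions with all peaks and 47.9% with equal lists. Csf2 encodes GM-CSF and had 0 donor-Treg-only and 5 iTreg-only regions. The one over the Csf2 start, chr11:54249109-54249823, had 709 and 669 bp in iTreg and a peak in both host pTreg and all 4 Tconv libraries. Il3, its neighbour, had 0 and 3, and chr11:54271351-54272025 with 675 and 609 bp in iTreg had no peak in any of the other 10 libraries. Both genes lie in the 500 kb window chr11:54000001-54500000, which held 0 donor-Treg-only and 32 iTreg-only regions. Hk2, which encodes a hexokinase that starts glycolysis, had 0 and 4 with all peaks and with equal lists. Slc2a1, the glucose transporter GLUT1, had 0 and 5, but 1 and 1 with equal lists. The list of 17 glycolysis and mTOR genes had 5 donor-Treg-only and 36 iTreg-only regions (12.2%), and 6 and 12 (33.3%) with equal lists, above the overall share with all peaks and below it with equal lists. With all peaks 0 of its 52 shared regions were wider in donor Treg, against 6.65% of all. The 18 effector cytokine genes had 6 and 30 (16.7%) with all peaks and 14 and 9 (60.9%) with equal lists, so their balance depends on list length. The 12 AP-1 and BATF genes had 0 and 15, of which Batf3 gave 5, and 2 and 1 with equal lists. The 25 cell cycle genes had 2 and 19 (9.52%), and 6 and 7 with equal lists. Runx3, a factor of cytotoxic and TGF-beta-treated T cells, had 0 and 7, and 1 and 5 with equal lists. Zbtb16, which encodes PLZF, had 0 and 8, but 1 and 1 with equal lists.

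The genes with the largest net in each direction had varied functions. Next to Ikzf2 in the donor Treg direction stood Hdac9, a class IIa histone deacetylase gene, with 9 donor-Treg-only and 2 iTreg-only regions. Sh3rf1, a scaffold of JNK signalling, had 8 and 1. In all 4 host Treg libraries were found 2 of the 9 donor-Treg-only regions of Hdac9 and 6 of the 8 of Sh3rf1. The widest of Sh3rf1, chr8:61269763-61271275, had 1417 and 1466 bp in donor Treg. Plcb4, a phospholipase C, had 7 and 1, Atxn1 (ataxin-1) 7 and 2, Tenm4 4 and 0, and Ptprc, which encodes CD45, 4 and 0. Of these donor-Treg-only regions 3 of 7 at Plcb4, 5 of 7 at Atxn1, 3 of 4 at Tenm4 and 2 of 4 at Ptprc were in all 4 host Treg libraries. Each host Treg library held 68.3 to 85.8% of all donor-Treg-only regions. In the iTreg direction stood Cdkal1, a tRNA-modifying enzyme gene, with 0 donor-Treg-only and 23 iTreg-only regions. Of those 23, 16 had no peak in any of the 8 other libraries, as had 53.0% of all iTreg-only regions. Slc39a11, a zinc transporter, had 0 and 22, Nfia, a factor of the nuclear factor I family, 1 and 22, Elmo1, a Rac activator, 0 and 20, and Pard3, a polarity protein, 0 and 20. The Notch coactivators Maml2 and Maml3 had 1 and 21 and 1 and 19. With equal lists the donor Treg direction was led by Tox (14 and 0), Inpp4b (15 and 1) and Rad51b (14 and 1), and the iTreg direction by Gse1 (0 and 11), Tgfbr3 (0 and 9), Mvb12b (0 and 8) and Pard3 (0 and 8).

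Differing regions were also counted in windows along the chromosomes. The 500 kb window with the largest net towards donor Treg was chr1:69500001-70000000 around Ikzf2, with 12 donor-Treg-only and 4 iTreg-only regions. Next came chr10:98500001-99000000 around Atp2b1, a calcium pump gene, with 7 and 1, and chr12:34500001-35000000 inside Hdac9 with 6 and 0. Towards iTreg, chr1:135500001-136000000 around Nav1 and Pkp1 had 1 and 33 and chr14:25000001-25500000 around Zmiz1 had 2 and 31.

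Across the 28 gene lists the donor Treg share of the differing regions had a median of 15.0% and went from 0 to 50.0%, and 23 lists lay above the 7.99% of all differing regions. With equal lists 20 of the 28 lay above 47.9%, and with only peaks of at least 300 bp 16 of the 28 lay above the overall share of 7.85%. The Treg core list of 20 genes had 33 donor-Treg-only and 34 iTreg-only regions (49.3%), with 43 and 16 (72.9%) in equal lists. Of these 33 and 43 regions, Ikzf2 alone gave 12 and 12. Of the 82 shared regions of the Treg core list 20 (24.4%) were wider in donor Treg, against 6.65% of all. Lists of helper programmes lay lower, with 7 and 30 for Th1 and cytotoxic genes (18.9%), 5 and 37 for Th17 (11.9%), 2 and 13 for Tfh (13.3%) and 1 and 9 for Th2 (10.0%). With equal lists their shares were 66.7% for Th1 and cytotoxic genes, 52.6% for Th17, 58.3% for Tfh and 33.3% for Th2. Homing and retention genes had 10 donor-Treg-only and 17 iTreg-only regions (37.0%), and 19 and 5 (79.2%) with equal lists. The lowest shares with all peaks were those of the AP-1 and BATF genes, the NF-kB genes with 1 and 18, and the B cell, myeloid and stem cell marker lists with 0 donor-Treg-only and 13, 14 and 13 iTreg-only regions. With equal lists NF-kB genes had 5 and 5, B cell markers 0 and 1, myeloid markers 1 and 1 and stem cell markers 3 and 3. CD8 T cell markers had 1 and 9 with all peaks and 3 and 0 with equal lists, and NK markers 2 and 5 and 1 and 1. The part of such cells in the differences was not tested.

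**Figure D4:**
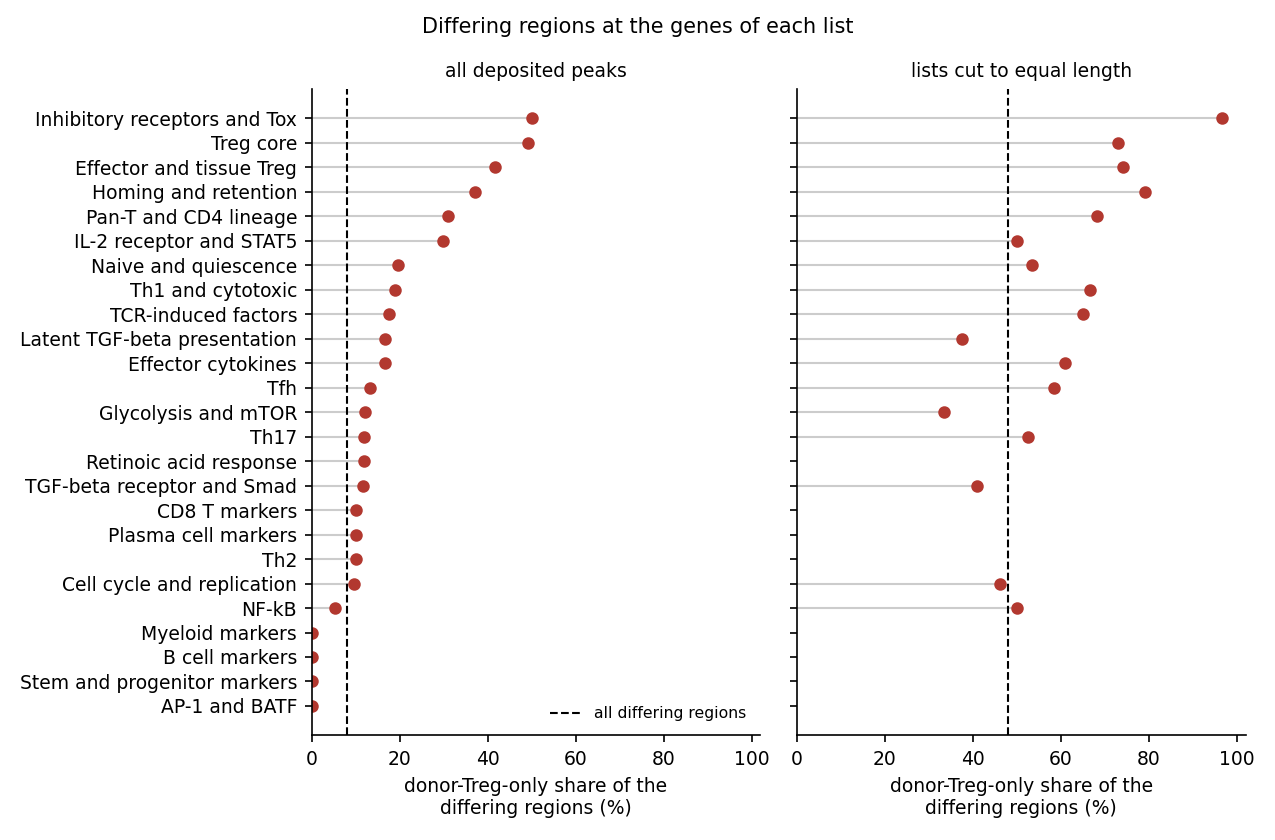
Donor-Treg-only regions as a percent of the differing regions (x axis) at the genes of each list (rows), with all peaks (left) and equal lists (right), for lists with at least 10 differing regions in that panel; the dashed line marks all differing regions, 7.99% and 47.9%. Inhibitory receptors and Tox, Treg core and effector and tissue Treg lie right of the line in both panels.

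Libraries that played no part in choosing the regions show where else they are open. Of the donor-Treg-only regions, 85.7, 76.8, 68.3 and 85.8% had a peak in the 4 host Treg libraries, against 64.6, 61.7, 40.1 and 54.9% in the 4 Tconv libraries. The means were 79.1 ± 8.37% in host Treg and 55.3 ± 10.9% in Tconv (SD, n = 4 each), a difference of 23.8 percentage points (two-sided exact permutation test, p = 0.0286, adjusted 0.0286 over 3 shares). All 4 host Treg libraries were above all 4 Tconv libraries, which gives the smallest p this design allows. Host Treg pools pTreg with tTreg and Tconv pools donor with host cells. Each SD therefore also holds differences between these populations, and the test treats the libraries of a side as alike. Of the iTreg-only regions, 11.9, 5.38, 1.79 and 8.25% had a peak in host Treg, against 36.8, 31.1, 19.0 and 32.6% in Tconv. The means were 6.82 ± 4.27% in host Treg and 29.9 ± 7.62% in Tconv, a difference of -23.1 points (same exact permutation test, p = 0.0286, adjusted 0.0286). The host Treg lists held 28394 to 37934 peaks and the Tconv lists 37050 to 47193, so host Treg had the higher share of donor-Treg-only regions with mostly shorter lists. Of the differing regions found in a library, the donor-Treg-only ones made up 38.6, 55.4, 76.8 and 47.5% in the host Treg libraries and 13.2, 14.7, 15.5 and 12.8% in the Tconv libraries. This share was 54.5 ± 16.3% in host Treg and 14.0 ± 1.26% in Tconv, a difference of 40.5 points (exact permutation test, p = 0.0286, adjusted 0.0286). With equal lists the 3 differences were 27.1, -18.8 and 25.7 points, each with an exact permutation p of 0.0286. Without donor Treg replicate 1 the first difference was 16.8 points (exact permutation test, adjusted p = 0.0857), and without iTreg replicate 2 it was 19.8 points (adjusted p = 0.0571). Host Treg libraries carry the run code DR31 and Tconv libraries BW13, and the number in the name is lower in every host Treg than in every Tconv library, so run and number cannot be told apart from this contrast, and no run holds both sides. The Tconv libraries share their run code with donor Treg. Without any 1 of these 8 libraries the exact permutation p of each share was 0.0571, the smallest that 35 splits allow.

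**Figure D5:**
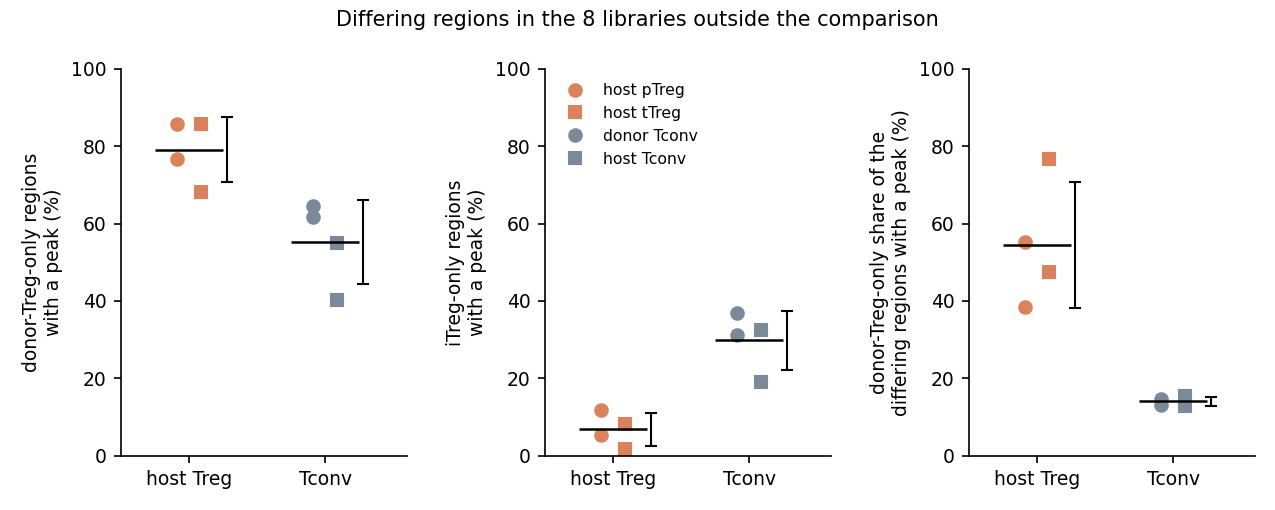
Percent of donor-Treg-only regions (left) and of iTreg-only regions (middle) with a peak in each of the 8 other libraries, and donor-Treg-only share of the differing regions found there (right); points are libraries, lines are means and bars SD over 4 libraries. Host Treg libraries lie above Tconv in the left panel (means 79.1 and 55.3%) and below it in the middle panel (6.82 and 29.9%).

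By pattern, 1962 of the 2085 donor-Treg-only regions (94.1%) had a peak in at least 1 host Treg library and 1490 (71.5%) in at least 1 Tconv library. All 8 libraries shared 516 of them (24.7%), 299 (14.3%) were in all 4 host Treg and no Tconv library, and 48 were in none of the 8. Thus 97.7% of the donor-Treg-only regions had a peak in at least 1 other sorted library. Of the 24002 iTreg-only regions 12710 (53.0%) had a peak in none of the 8, 2482 (10.3%) in all 4 Tconv and no host Treg library, and 60 (0.25%) in all 4 host Treg and no Tconv library. With all peaks most iTreg-only regions were thus seen in iTreg alone, but the iTreg lists are the longest of the series. The part of list length in this was not tested. The Tgfb1 and Tnfrsf18 regions are among the 60.

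Promoter windows with a peak in one group only differed little from each other in base content. Windows with a peak only in donor Treg and only in iTreg both had a median GC content of 58.3%, against 62.0% for windows shared by all 4 libraries and 47.7% for windows with no peak. They held a median of 15 CpG in donor-Treg-only, 12 in iTreg-only and 22 in shared windows. A KLF/SP motif was in 36.5% of donor-Treg-only, 32.8% of iTreg-only and 50.5% of shared windows. An AP-1 motif (TGANTCA) was in 8.73% of donor-Treg-only, 8.01% of iTreg-only and 4.16% of shared windows, against 7.81% of all windows. The STAT motif was in 5.56, 7.23 and 6.51% of these classes. With 126 donor-Treg-only windows such shares rest on few sequences, and none was tested.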

How the data were processed

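Open chromatin was profiled by omni-ATAC in 12 libraries of sorted Balb/c mouse CD4 T cells. The submitters' processing notes name Bowtie2 2.3.3, HOMER 4.10, bedtools and the genome build mm10; which step each served, its settings and the peak threshold were not stated in these sources. The deposited files are peak lists in which the authors' score is 1000 in every peak, so the score carries no information and only position and width were used. Each library has its own list; whether peaks were compared or filtered across libraries before deposit is not stated.

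Peaks of the 4 lists sharing at least 1 bp were merged. A region went to the gene body that holds its midpoint, the shortest where several do, and otherwise to the nearest gene end within 50 kb, among 21896 protein-coding RefSeq genes (GRCm38.p6). A gene's net is its donor-Treg-only minus its iTreg-only regions, and a net of 3 or more was counted as a call. Width is the number of bp covered by peaks. Promoter windows of 300 bases (32851) come from RefSeq and were searched on both strands for 18 motifs. These were the AP-1 element (TGANTCA), the cyclic AMP response element (TGACGTCA), the RUNX motif (TGTGGTT), the core of ETS factors (CAGGAAGT), the STAT palindrome (TTCNNNGAA), the site of TCF and LEF proteins (ATCAAAG), the Forkhead motif (TGTTTAC), the GATA-family motif (AGATAA), the SMAD element (CAGACA), the E2F motif (TTCCCGC), the nuclear receptor NR4A element (AAAGGTCA), the KLF/SP box (GGGCGGG), the E-box of MYC (CACGTG), the T-box element (AGGTGTGA), the NFAT core (TGGAAA), and longer patterns for NF-kB, CTCF and IRF.

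The members and gene lists were chosen with earlier results of these data known. Named genes are the 12 with the largest net in each direction, with all peaks and with equal lists, those with the largest net within a list, and 71 chosen genes. The only tests are two-sided exact permutation tests over the 8 other libraries, adjusted by Benjamini-Hochberg over 3 shares. Alternatives were lists of equal length, 50% coverage, absence within 500 bp, peaks of at least 300 bp, merging all 12 lists, assignment within 10 kb, and leaving out each library. Nothing in the labels ties equal replicate numbers of different groups to one animal or day. Scripts were tested on simulated data and ran in Python 3.11.15 with NumPy 2.4.6, pandas 2.3.3, SciPy 1.17.1 and matplotlib 3.10.9.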

Additional observations from a re-analysis of the deposited data

How the results depend on the processing

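Counts of differing regions depended most on list length. With lists of equal length 4882 regions were donor-Treg-only and 5314 iTreg-only, the donor Treg share was 47.9%, and 740 shared regions were wider in donor Treg. Requiring no peak within 500 bp gave a share of 7.44%. Leaving out 1 of the 4 libraries gave 2274 to 3122 donor-Treg-only and 25226 to 31487 iTreg-only regions, a share of 6.74 to 11.01%, and 2325 to 3346 shared regions wider in donor Treg. Under equal lists the net turned towards donor Treg at Irf8 (1), Rora (2), Runx1 (3) and Skil (1), while 14 of 14 donor Treg genes and 22 of 28 iTreg genes kept their sign; with only peaks of at least 300 bp, 12 of 14 donor Treg genes did. The cause was not tested. In the other libraries the difference for donor-Treg-only regions was 21.4 points with peaks of at least 300 bp (exact permutation test, adjusted p = 0.0571). Leaving out 1 library of the 12 gave differences of 16.8 to 27.4, -26.7 to -19.9 and 31.2 to 45.8 points for the 3 shares. Without any 1 of the 8 other libraries the exact permutation p was 0.0571, the smallest that design allows. With the replicate number as a block the differences stayed 23.8, -23.1 and 40.5 points with an exact permutation p of 0.0556, the smallest the 36 splits allow. Sequencing depth is unknown and limits every statement of absence.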
